A study of Mus musculus with 9 samples.

Results

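The zinc finger protein genes described here are the mouse genes whose symbol starts with Zfp and a number, without Zfp36, Zfp36l1, Zfp36l2 and Zfp395, and 247 of the 11229 genes in the expression table met that rule. RNA-seq of whole liver gave FPKM values (fragments scaled by transcript length and by the number of mapped fragments) in 9 libraries, 3 in each of 3 groups. All livers came from C57BL/6 mice of 8 weeks, and no genetic change is named in the labels. The sham group carried the label sham, the IR group had ischaemia-reperfusion (labelled I/R), in which blood flow to the liver is stopped and restored, and the IPO group had ischaemic postconditioning, in which reperfusion is interrupted by short pauses. How long ischaemia lasted and when tissue was taken are not in the labels, which also do not say whether the 3 libraries of a group came from separate mice, so p-values measure the spread between libraries, which may be technical.

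Most Zfp genes encode C2H2 zinc finger proteins, in which each finger is a short fold held by a zinc ion and reads a few bases of DNA. The largest class carries a KRAB domain at its start. KRAB recruits the corepressor TRIM28 (KAP1) and, through it, the histone methyltransferase SETDB1, and this pathway is known above all for keeping retroelements and imprinted loci silent. The rest of the Zfp symbols cover transcription activators, RNA-binding proteins, ribosome factors and ubiquitin ligases that share little beyond the zinc-binding fold.

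A search of the GENCODE M21 coding sequences for the conserved core of the KRAB A box found it in 130 of the 247 members, which are called KRAB members below, and not in 117. The pattern was settled with earlier results of these data known, and a domain that departs from it is missed. The members held a median of 10 C2H2 fingers, with a range of 0 to 36 by the pattern used. All 247 are protein coding.

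Promoter windows from RefSeq (GRCm38.p6, 300 bases around the annotated start) were found for 207 members, in 256 windows. Zfp143, Zfp866 and Zfp445 are shown because they are among the members with the largest falls in IR and stand for a transcription activator, a low-level KRAB gene and the KRAB member with the highest level. Capitals mark the letters CCAAT, the CCAAT box, read on both strands. The Zfp143 window is chr7:110061452-110061751 on the plus strand, the Zfp866 window is chr8:69774862-69775161 on the minus strand and the Zfp445 window is chr9:122865957-122866256 on the minus strand.
Zfp143: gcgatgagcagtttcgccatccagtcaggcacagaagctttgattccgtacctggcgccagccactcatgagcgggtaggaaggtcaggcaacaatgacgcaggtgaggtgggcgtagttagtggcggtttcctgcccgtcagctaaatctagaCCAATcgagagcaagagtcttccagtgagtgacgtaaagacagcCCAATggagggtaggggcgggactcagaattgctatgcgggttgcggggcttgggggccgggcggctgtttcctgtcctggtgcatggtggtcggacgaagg
Zfp866: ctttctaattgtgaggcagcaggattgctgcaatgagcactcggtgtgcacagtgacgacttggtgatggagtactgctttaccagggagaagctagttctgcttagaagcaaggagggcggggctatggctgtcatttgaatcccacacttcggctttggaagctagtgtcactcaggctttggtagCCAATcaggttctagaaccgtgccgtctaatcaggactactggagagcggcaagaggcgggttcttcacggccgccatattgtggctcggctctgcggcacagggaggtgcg
Zfp445: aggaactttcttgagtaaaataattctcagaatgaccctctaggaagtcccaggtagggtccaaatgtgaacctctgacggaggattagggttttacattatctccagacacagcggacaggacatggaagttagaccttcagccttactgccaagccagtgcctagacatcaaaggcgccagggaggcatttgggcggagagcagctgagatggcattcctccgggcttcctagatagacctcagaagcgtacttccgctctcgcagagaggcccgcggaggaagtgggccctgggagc
The Zfp143 window holds the CCAAT letters 2 times, the Zfp866 window holds them 1 time and the Zfp445 window does not hold them. The same letters were in 48% of the 256 member windows, in 58.5% of the 130 windows of KRAB members and in 37.3% of the 126 windows of the other members, against 37.4% of all 32851 windows. The ETS letters CCGGAAGT were in 10.5% of member windows against 3.89% of all. The TATA letters TATAAA were in 5.47% of member windows against 13.6% of all, and the AP-1 letters TGANTCA, where N is any base, in 3.91% against 7.81%. A window was counted if either strand matched, and matches of different motifs may overlap. The shares are of windows, not of genes. Windows of 1 gene can overlap, as those of Zfp143 that start at 110061452 and 110061461 do. The member windows held a median of 15.5 CG dinucleotides against 7 in all windows. That median was 10 in windows of KRAB members, 22 in those of the other members and 13 in those of members that fell in IR. Among the 51 windows of 41 members that fell in IR, 60.8% held the CCAAT letters, near the 58.5% of KRAB windows. The ETS letters were in 5.88% of these 51 windows, the TATA letters in 3.92% and the AP-1 letters in 1.96%. The E-box letters were in 9.8% of them, the CRE letters in 3.92%, the ZNF143 core in 1.96% and the NRF1 letters in 0%. Of the members that fell, 75% had the KRAB core. A match describes the letters and is not evidence of binding.

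The members were expressed at low levels in liver. Their mean over the 9 libraries ranged from 0.359 FPKM for Zfp105 to 21.3 FPKM for Zfp706, with a median of 1.65 FPKM. Of the 247, 9 were over 10 FPKM, 18 lay between 5 and 10, 143 between 1 and 5 and 77 under 1. The 170 members that averaged 1 FPKM or more were tested, with all 9649 genes that passed the same limit. Among the 247, exons of 24 overlap another gene on the same strand and those of 65 a gene on the other strand. In 17, over 20% of the 75-base fragments of the transcripts also occur in another gene. Of the members named below, Zfp518a, Zfp617, Zfp644, Zfp729a, Zfp866 and Zfp91 overlap a gene on their own strand. Zfp106, Zfp143, Zfp335, Zfp687, Zfp703, Zfp706, Zfp74 and Zfp866 overlap one on the other strand. The values of all these members may include reads of a neighbour.

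The median member was lower in every IR library than in any sham or IPO library. On the log2(FPKM + 0.5) scale the median over all 247 members was 1.205, 1.275 and 1.137 in sham replicates 1 to 3, 0.508, 0.815 and 0.807 in the IR replicates, and 1.265, 1.229 and 1.142 in the IPO replicates. The sham and IPO libraries overlapped, and IR replicate 1 was the lowest. The members' summed FPKM lay at 645 to 725 in the sham libraries, at 466 to 551 with IR and at 672 to 698 with IPO. The median over all genes in the table was 2.27 to 2.35 in sham, 2.15 to 2.34 in IR and 2.29 to 2.33 in IPO on the same scale, so those ranges touched or overlapped. In bulk liver, fewer cells of a type and less RNA per cell cannot be told apart.

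**Figure D1:**
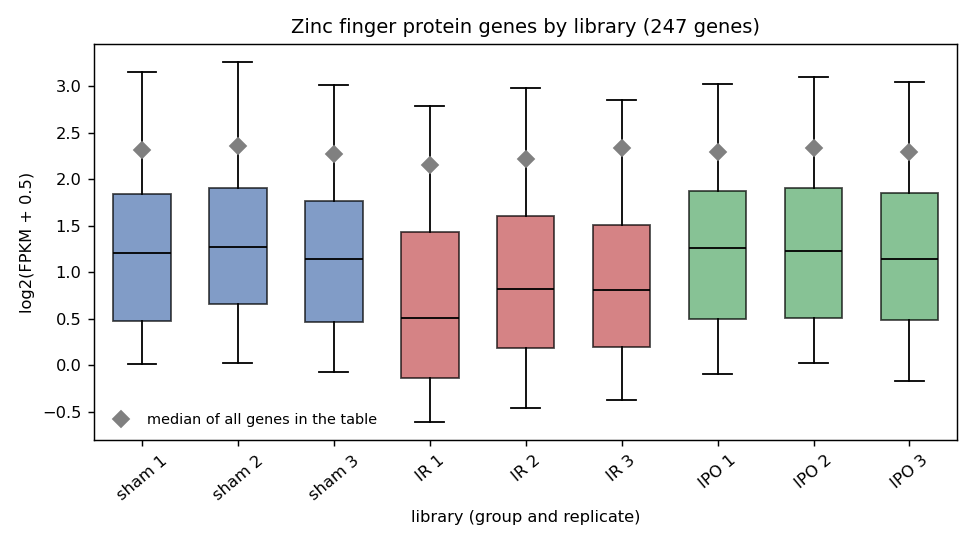
Level of the 247 zinc finger protein genes in each library (x axis, 3 per group) as log2(FPKM + 0.5) (y axis). Boxes span the middle quartiles with the median as a line, whiskers reach from the 5th to the 95th percentile, and grey diamonds give the median of all genes in the table. The 3 IR medians lie between 0.51 and 0.82, below all sham and IPO medians.

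Between IR and sham, 48 of the 170 tested members fell and 4 rose, while 118 did not pass the test (limma over all 9649 genes, Benjamini-Hochberg adjusted p under 0.05). That is 28.2% lower and 2.35% higher, beside 7.64% of all tested genes called lower and 3.86% called higher. The median log2 fold change of the members was -0.38 and that of all tested genes was -0.05. In 82 members all 3 IR libraries were below all 3 sham libraries, as in 19.3% of all genes, and in 13 members all were above, as in 13.2%. Among genes with a mean of 1 to 5 FPKM, where most members lie, 7.3% of all genes were lower and 41 of 143 members were. The count of 48 fell to 16 without sham replicate 1, 15 without sham replicate 2, 29 without IR replicate 1 and 30 without IPO replicate 3. The share of all genes called lower also fell, to 2.17% and 2.18% without those sham replicates. It was 4.51% without IR replicate 1 and 4.39% without IPO replicate 3. The description labels hold a number that is the same in all 3 IR libraries and in sham replicate 2 but not in the other sham libraries, and with it as a term 8 members were lower (4.71%, against 1.35% of all genes). What the number stands for was not stated.

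Between IPO and IR the direction was the opposite. Here 58 of the 170 members were higher in IPO and 8 lower, with 104 not called, which is 34.1% and 4.71% beside 12% and 10.1% of all tested genes. The members' median log2 fold change was 0.43 against 0.02 for all tested genes. In 86 members all IPO libraries were above all IR libraries, as in 22.2% of all genes, and in 16 all were below, as in 20.4%. The count of 58 became 36, 38 and 37 without IPO replicate 1, 2 or 3, while the share of all genes called higher became 6.63%, 6.68% and 6.53%. The number in the description label was a different one in the IPO libraries, the same in all 3 and in no other library, so whatever it stands for cannot be told apart from the IPO group.

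Between IPO and sham, 0 members were called in limma in either direction. An unadjusted p under 0.05 was found in 13 of the 170 members, beside 1186 of all 9649 tested genes. Among all tested genes 0.124% were higher and 0.104% lower, so few calls were made there at all. The members' median log2 fold change was 0.01. In 12 members all IPO libraries were above all sham libraries, as in 9.59% of all genes, and in 16 all were below, as in 13.2%. The largest difference was that of Zfp40, a KRAB gene, at 1.04 (SE 0.28, adjusted p = 0.174).

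The comparisons of IR with sham and of IPO with IR share the IR libraries, so a member that was low in IR was moved in both. Read side by side, 42 members were lower in IR than sham and higher in IPO than IR, and 3 were higher and then lower. A further 16 were called only as higher in IPO than IR and 5 only as lower, 6 were called only as lower in IR than sham and 1, Zfp622, only as higher. The remaining 97 tested members had no call in either. The same cross of calls over all tested genes was not counted, so these numbers have no background to be read against.

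As reported, KRAB members held most of the calls. With the description number as a term, where the sham side rests on sham replicate 2, they did not hold most falls in IR. Of the 79 tested KRAB members, 36 fell in IR and 0 rose, beside 7.64% and 3.86% of all tested genes. Their median log2 fold change was -0.69, with a value below 0 in 74. Of the 91 tested members without the core, 12 fell and 4 rose, with a median of -0.16. In IPO against IR, 44 of 79 KRAB members were higher and 0 lower, with a median of 0.69. Of all tested genes, 12% were higher and 10.1% lower there. The members without the core had 14 higher and 8 lower, with a median of 0.14. In 61 of the 79 KRAB members all IR libraries were below all sham libraries, against 21 of the 91 others and 19.3% of all tested genes. The difference between the 2 classes was not tested. Without sham replicate 1 or 2 the KRAB members that fell numbered 11 and 10, without IR replicate 1 they numbered 23, and without IPO replicate 3 they numbered 22. Of all genes, 2.17%, 2.18%, 4.51% and 4.39% were lower in those fits. The KRAB members higher in IPO than IR numbered 27, 28 and 29 without IPO replicate 1, 2 or 3, beside 6.63%, 6.68% and 6.53% of all genes.

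**Figure D2:**
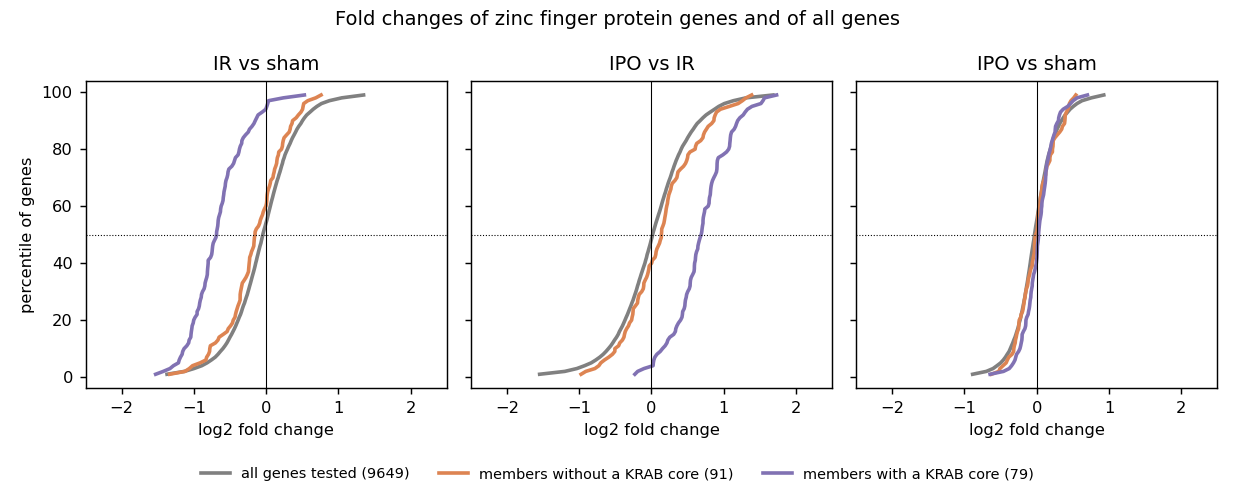
Log2 fold change (x axis) against the percentile of genes (y axis) in the 3 comparisons, for KRAB members (79), members without the core (91) and all 9649 tested genes. The curve of the KRAB members crosses the 50th percentile at -0.69 in IR against sham and at 0.69 in IPO against IR, and the 3 curves lie close together in IPO against sham.

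Transcript base composition moved with these counts. The tested KRAB members had a median transcript GC content of 40.3% and the other tested members 48.8%, against 49.6% for all tested genes with a value. Among all tested genes the share called lower in IR was 14.4% of the 1198 with a GC content under 42%, 10.8% of the 2803 from 42% to 48% and 4.63% of the 5635 at 48% or more. In the same ranges it was 33 of 68, 12 of 44 and 3 of 58 of the members, or 48.5%, 27.3% and 5.17%. The KRAB members had 27 of 49, 9 of 22 and 0 of 8 called lower. In IPO against IR the share called higher was 22.8%, 17.1% and 7.12% of all genes and 57.4%, 34.1% and 6.9% of the members. After a loess correction of each library for GC content and transcript length, 36 members were lower in IR (21.2%, against 6.69% of all genes) and 43 were higher in IPO than IR (25.3%, against 10.6%). The KRAB members made up 25 and 28 of these.

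**Figure D3:**
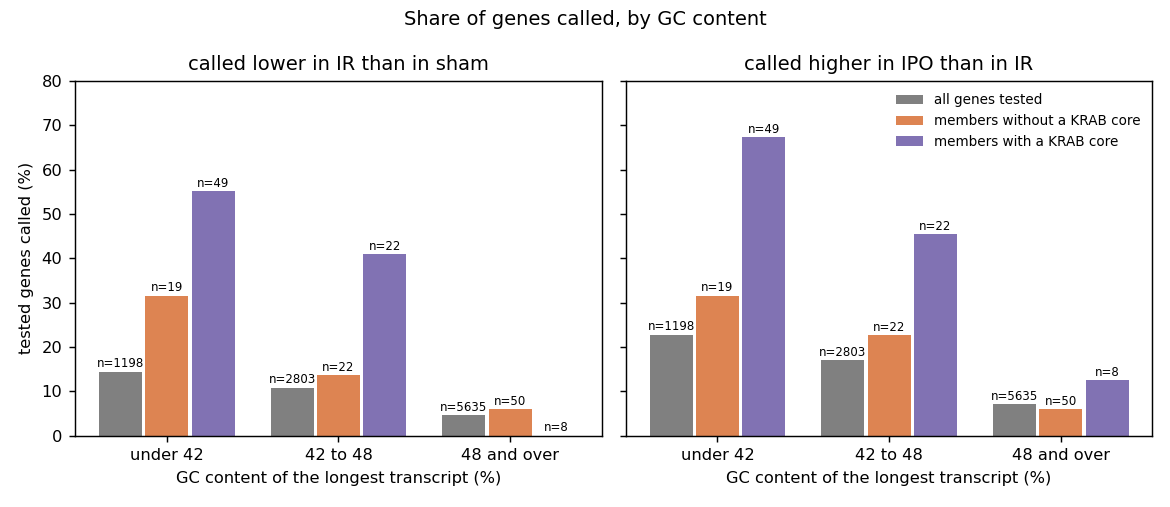
Share of tested genes called (y axis, percent) in 3 ranges of GC content of the longest transcript (x axis), for lower in IR than sham (left) and higher in IPO than IR (right). Bars are all genes, members without the KRAB core and KRAB members, with the number of genes over each bar. At a GC content under 42%, 55.1% of KRAB members and 14.4% of all genes were called lower in IR.

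Among the KRAB members with a known role in retroelement and imprint control, 4 were in the table and all 4 were tested. Of these, 3 fell in IR and 2 were higher in IPO than IR. Among all tested genes the shares were 7.64% and 12%, and among all tested KRAB members 45.6% and 55.7%. Zfp445 (ENSMUSG00000047036.7, chr9:122851914-122862128, minus strand, mm10, as the authors deposited it) helps maintain genomic imprints in mouse embryos. It had 22.4, 21.3 and 27.7 FPKM in the sham replicates, 8.2, 13.1 and 10.3 in the IR replicates and 26.4, 25.8 and 30.8 in the IPO replicates. The IR libraries were all below the sham and IPO libraries, which overlapped each other. Its mean was 23.8 ± 3.43 FPKM in sham and 10.5 ± 2.45 in IR (SD, n = 3), which is -1.16 on the log2 scale (SE 0.18, adjusted p = 0.00607 in limma, and 0.0851 with the description number as a term). In IPO the mean was 27.7 ± 2.72 FPKM, 1.37 above IR on the log2 scale (SE 0.18, adjusted p = 0.00145). The promoter window shown above lies upstream of this deposited span. GENCODE M21 gives the gene a different span, which was not compared with the window.

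Zfp809 (ENSMUSG00000057982.7, chr9:22225714-22243197, plus strand) silences murine leukaemia virus in mouse embryonic cells by binding its primer binding site. Its FPKM values were 13.6, 13.2 and 15.1 in sham, 4.35, 7.3 and 9.33 in IR and 17.5, 14.7 and 20.1 in IPO. The IR libraries were below all others, and IPO overlapped sham. The log2 fold change was -1.01 in IR against sham (SE 0.24, adjusted p = 0.0284) and 1.31 in IPO against IR (SE 0.24, adjusted p = 0.00594). The first call was lost without any 1 of the sham replicates or IR replicate 2 (adjusted p up to 0.0863), in the fit of the 2 compared groups only (0.0735) and with the description number (0.182), and the second was kept in all alternatives.

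Zfp932, which represses endogenous retroviruses in mouse embryonic stem cells, fell from 1.49 ± 0.234 FPKM in sham to 0.651 ± 0.268 in IR (log2 fold change -0.82, SE 0.21, adjusted p = 0.0388). The call was lost without sham replicate 2, IR replicate 1 or any 1 IPO replicate (adjusted p up to 0.121), and with the description number (0.171), the loess correction (0.0823), the replicate block (0.068) and 2 groups only (0.0962). It had 1.06 ± 0.187 FPKM in IPO, which did not pass the test against IR (adjusted p = 0.141). Of its transcript fragments of 75 bases, 32.6% also occur in another gene, mostly in Gm15446, so its reads may be split between them. Zfp568, a repressor of a placental Igf2 transcript in mouse, had 0.855, 0.671 and 0.575 FPKM in sham and 1.73, 0.623 and 2.1 in IR. Those libraries overlapped, and its log2 fold change of 0.64 did not pass the test (adjusted p = 0.194), but did without IR replicate 2 (0.0393).

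Several KRAB genes without a known role in liver had larger changes, from lower levels. Zfp866 (ENSMUSG00000043090.18, chr8:69761326-69791178, minus strand) had 1.88, 2.35 and 1.79 FPKM in sham, 0.435, 0.498 and 0.137 in IR and 1.99, 1.73 and 2.39 in IPO. All 3 IR values were below those of the other 6 libraries. Its log2 fold change of -1.57 (SE 0.21, adjusted p = 0.00337) was the largest fall among the members in IR against sham, and it was 1.59 in IPO against IR (adjusted p = 0.00144). Over the alternatives the IR value ranged from -2.31 to -1.15, the ends of that range being set by the pseudocount. Zfp866 shares exon bases with Gm20422 on its own strand and with Atp13a1 on the other, and whether the counting used strand is not stated. The RefSeq window shown above lies inside the GENCODE span of the gene.

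Zfp160 (chr17:21008941-21028852, plus strand) had 3.94, 4.41 and 2.57 FPKM in sham, 0.477, 1.12 and 1.3 in IR and 5.11, 3.11 and 3 in IPO. All IR libraries were below the others, and the log2 fold change was -1.52 (SE 0.29, adjusted p = 0.013). That call was lost without sham replicate 1 or 2 (adjusted p up to 0.0586) and with the description number (0.0653), and the rise of 1.55 in IPO against IR was kept in every alternative. Zfp113 (chr5:138139702-138155744, minus strand) varied less between libraries, with 2.52, 2.24 and 2.32 FPKM in sham, 0.449, 0.933 and 0.536 in IR and 2.59, 2.71 and 2.95 in IPO. It was lowest in the IR libraries without overlap, its log2 fold change of -1.35 (SE 0.17, adjusted p = 0.00312) was called in every alternative, and in IPO against IR it was 1.53 (adjusted p = 0.000869).

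Zfp40 (ENSMUSG00000002617.14, chr17:23173869-23193252, minus strand) had the largest difference of all members between IPO and IR. Its FPKM values were 2.13, 1.25 and 0.743 in sham, 0.156, 0.352 and 0.336 in IR and 2.51, 4.23 and 2.99 in IPO. All IR values were below the sham values, and all IPO values were above both. The log2 fold change was 2.24 in IPO against IR (SE 0.28, adjusted p = 0.00127), called in every alternative. In IR against sham it was -1.21 (SE 0.28, adjusted p = 0.0279), and that call was lost without sham replicate 1 or 2, IR replicate 1 or 2, or IPO replicate 3 (adjusted p up to 0.0893), and with the description number (0.164), the loess correction (0.0614) or the replicate block (0.0523). The authors' deposited table lists Zfp40 as higher in IPO than sham, with a q-value of 0.361, where limma did not call it.

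The other KRAB falls named by the rule were Zfp825 (12.9 ± 3.31 FPKM in sham and 5.23 ± 2.37 in IR), Zfp950 (1.93 ± 0.389 and 0.592 ± 0.238), Zfp617 (8.19 ± 0.763 and 3.66 ± 0.735) and Zfp933 (1.73 ± 0.146 and 0.6 ± 0.35), each with n = 3 and no overlap. Of these, Zfp617 was called in every alternative, although 36.6% of its 75-base fragments also occur elsewhere, mostly in Gm18180. Zfp825 lost its call without sham replicate 1 or 2, IR replicate 2 or IPO replicate 3 (adjusted p up to 0.115) and with 2 groups only (0.0851). Zfp933 lost it without sham replicate 1 or 2, IR replicate 1 or 2 or IPO replicate 3 (up to 0.0956) and with 2 groups only (0.0708). Zfp950 lost it without sham replicate 2 (0.0548). With the description number the adjusted p was 0.0875, 0.152 and 0.0562 for these 3. In IPO against IR, Zfp729a rose from 0.631 ± 0.223 to 2.22 ± 0.131 FPKM (log2 fold change 1.28, adjusted p = 0.00175) and Zfp747 from 0.763 ± 0.135 to 2.45 ± 0.295 FPKM (1.22, adjusted p = 0.00539). Zfp729a had also fallen in IR against sham, while Zfp747 had an adjusted p of 0.0524 there. Of the 75-base fragments of Zfp747, 21.4% also occur elsewhere, mostly in 9130019O22Rik.

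**Figure D4:**
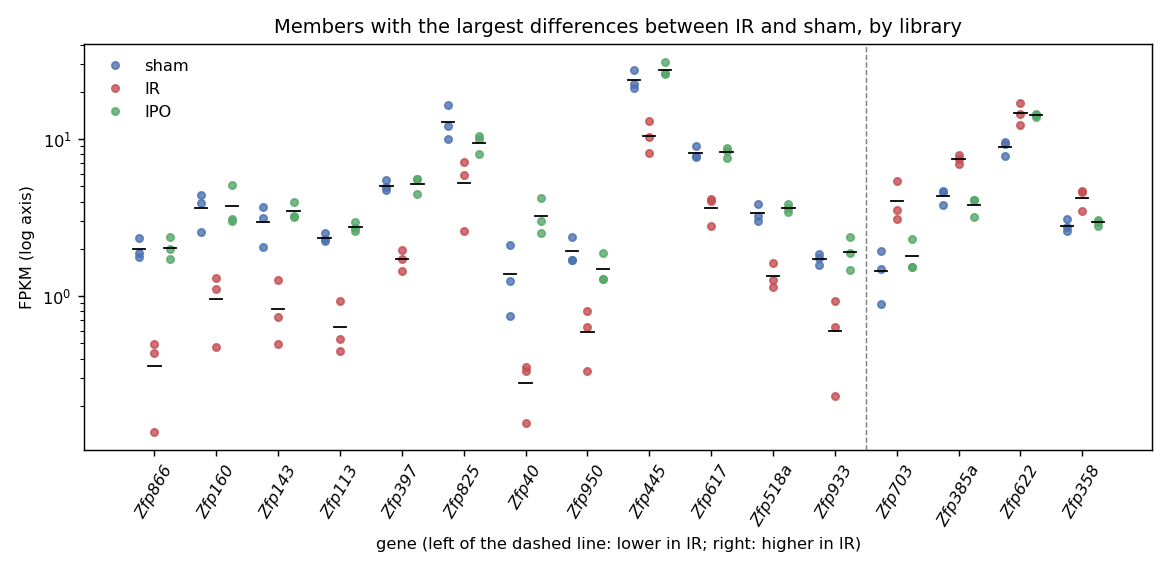
FPKM on a log axis (y axis) of the 12 members with the largest called falls and the 4 called rises between IR and sham (x axis), in every library. Points are libraries coloured by group and black bars are the mean of 3. For the 12 genes on the left the IR points lie below the sham points, as from 23.8 to 10.5 FPKM on average in Zfp445, and for the 4 on the right they lie above.

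Members without the KRAB core also fell. Zfp143 (ENSMUSG00000061079.14, chr7:110061217-110095394, plus strand) is an activator that binds promoters of protein-coding and small nuclear RNA genes. It had 3.13, 3.7 and 2.04 FPKM in sham, 0.494, 1.27 and 0.739 in IR and 4.01, 3.23 and 3.2 in IPO. The IR libraries lay apart from both other groups, with a log2 fold change of -1.38 against sham (SE 0.25, adjusted p = 0.0104) and 1.61 in IPO against IR (SE 0.25, adjusted p = 0.00324). Both calls were kept in every alternative. Its exons overlap those of AA474408 on the other strand, so reads of the pair may not be told apart.

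Zfp397 had 5.47, 4.93 and 4.77 FPKM in sham, 1.45, 1.98 and 1.73 in IR and 5.55, 5.58 and 4.44 in IPO. Its groups differed by a log2 fold change of -1.33 in IR against sham, with the smallest adjusted p of the members named (SE 0.14, adjusted p = 0.00149), and by 1.36 in IPO against IR (adjusted p = 0.000706). The IR libraries were below all others. Zfp146, a protein made almost wholly of fingers, went from 5.75 ± 0.317 FPKM in sham to 2.53 ± 0.548 in IR libraries and 6.6 ± 0.564 in IPO, and Zfp518a from 3.37 ± 0.426 to 1.34 ± 0.25 and 3.63 ± 0.203. Both fell in IR against sham, by log2 fold changes of -1.06 and -1.07, and both were higher in IPO than IR. The fall of Zfp518a was not called with the description number as a term (adjusted p = 0.0583). Zfp189 was called only in IPO against IR (log2 fold change 1.30, adjusted p = 0.019), a call lost without any 1 IPO replicate (up to 0.0607).

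Of the members with roles in RNA, ribosomes and splicing, 8 of 9 were tested. In IR against sham 2 rose, 2 fell and 4 were not called, and in IPO against IR 2 were higher and 1 lower. Of all tested genes, 3.86% rose and 7.64% fell in IR, and 12% were higher and 10.1% lower in IPO than IR. Zfp622, a factor of the maturation of the large ribosomal subunit, had 7.81, 9.29 and 9.63 FPKM in sham, 17, 14.5 and 12.4 in IR and 13.8, 14.4 and 14.3 in IPO. The IR and IPO libraries overlapped and both lay above sham. Its log2 fold change was 0.68 in IR against sham (SE 0.14, adjusted p = 0.0187) and 0.64 in IPO against sham, which did not pass the test (adjusted p = 0.115). Without sham replicate 1 or 2 the IR call was lost (adjusted p up to 0.0809), as with 2 groups only (0.0697) and with the description number (0.15).

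Zfp385a, an RNA-binding protein that also acts with p53, had 4.7, 3.82 and 4.59 FPKM in sham, 7.9, 7.46 and 6.94 in IR and 4.08, 4.08 and 3.18 in IPO. All 3 IR libraries were above the rest. It rose by 0.71 on the log2 scale in IR (SE 0.14, adjusted p = 0.0159), and was -0.90 in IPO against IR (adjusted p = 0.00337). The first call was lost without sham replicate 2 (adjusted p = 0.0669), with the description number (0.0618) and with the loess correction (0.181), and the second with the loess correction (0.0589). Zfp207, which acts in spindle assembly and splicing, fell from 8.73 ± 1.62 to 5.29 ± 0.4 FPKM, and Zfp830, a spliceosome-associated protein, from 6.5 ± 1.41 to 3.56 ± 0.798. Zfp207 lost that call without sham replicate 1 or 2 or IR replicate 1 or 2 (adjusted p up to 0.0749), with 2 groups only (0.0759) and with the loess correction (0.0529), and Zfp830 without sham replicate 1 or 2, IR replicate 1 or any 1 IPO replicate (up to 0.126), with 2 groups only (0.0918) and with the description number (0.0828). Zfp207 and Zfp830 were also called higher in IPO than IR. Zfp207 lost that call with the loess correction (adjusted p = 0.05004) and without IPO replicate 1 (0.0508). Zfp830 lost it without IR replicate 1 or any 1 IPO replicate (up to 0.0972). Zfp598, the ubiquitin ligase that marks collided ribosomes, had 17.2 ± 0.468 FPKM in sham, 18.6 ± 3.57 in the IR group and 14.1 ± 0.482 in IPO and was not called, except as lower in IPO than IR without IR replicate 3 (adjusted p = 0.0306). Zfp106, an RNA-binding protein, had 12.8 ± 2.06, 9.9 ± 0.302 and 12.5 ± 1.55 FPKM and was not called, except as lower in IR without sham replicate 3 (adjusted p = 0.0494).

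Of the developmental and metabolic regulators, 11 of 12 in the table were tested. In IR against sham, 1 rose, 2 fell and 8 were not called, beside 3.86% of all tested genes higher and 7.64% lower. Zfp703, the mouse counterpart of a corepressor amplified in human breast cancer, had 1.93, 1.49 and 0.897 FPKM in sham, 5.42, 3.11 and 3.53 in IR and 1.54, 2.33 and 1.54 in IPO. The IR libraries were above both other groups. Its log2 fold change of 1.22 (SE 0.26, adjusted p = 0.0192) was the largest rise among the members, and it was -0.96 in IPO against IR (adjusted p = 0.0277). Without sham replicate 2 or IR replicate 1 the rise was not called (adjusted p up to 0.0637), nor was it with 2 groups only (0.0554) or with the description number (0.144). The lower level in IPO than IR was not called without IR replicate 1, IPO replicate 1 or IPO replicate 3 (up to 0.0928) or with the loess correction (0.145). Zfp143, described above, and Zfp292 were the 2 that fell. Zfp292 went from 3.43 ± 0.756 to 1.77 ± 0.184 FPKM, a call lost without sham replicate 1 or 2 or IR replicate 1 (adjusted p up to 0.0879), with the loess correction (0.126), with 2 groups only (0.072) and with the description number (0.0673).

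Zfp467, which promotes fat cell formation in mouse, was lower in IPO than IR, with 1.04, 1.92 and 2.04 FPKM in sham, 2.56, 2.22 and 2.93 in IR and 0.777, 1.11 and 0.853 in IPO. The IPO libraries were all below the IR libraries and overlapped sham at its lowest library. The log2 fold change of -1.12 (SE 0.21, adjusted p = 0.00702) was kept in every alternative, and in IR against sham it was 0.53 (adjusted p = 0.13). Zfp771, Zfp362 and Zfp839 were also lower in IPO than IR, by log2 fold changes of -0.72, -0.68 and -0.55, and all 3 lost the call under the loess correction for GC content and length (adjusted p of 0.618, 0.103 and 0.0744). Zfp362 also lost it without IPO replicate 3 (adjusted p = 0.0636) and Zfp839 without IR replicate 2, IPO replicate 2 or IPO replicate 3 (up to 0.0634). Zfp358 rose in IR against sham (0.51, adjusted p = 0.0463) and was lower in IPO than IR (-0.45, adjusted p = 0.0472). Its calls were lost in 12 of 19 and 13 of 18 alternatives, among them every fit without 1 sham or IPO replicate. Zfp750, an eighth member lower in IPO than IR (-0.73, adjusted p = 0.0451), has IPO and IR libraries that overlapped and is named after its values were seen.

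Of the members tied to ubiquitin, SUMO and chromatin, 6 of 8 in the table were tested and 0 were called in any comparison in limma. Among all tested genes, 3.86% rose and 7.64% fell in IR, and 12% were higher and 10.1% lower in IPO than IR. Zfp91, a ubiquitin ligase of the NF-kB pathway, had 16, 17.4 and 16.2 FPKM in sham, 15.9, 16.3 and 17.6 in IR and 12.5, 14.7 and 14.4 in IPO, and the sham and IR libraries overlapped. Zfp335, Zfp644 and Zfp687 had log2 fold changes of 0.33, -0.16 and 0.23 in IR against sham, with adjusted p of 0.243, 0.557 and 0.625. The member with the highest level, Zfp706, had 23.6 ± 2.58 FPKM in sham, 21.1 ± 4.01 with IR and 19.3 ± 1.56 with IPO and was not called. Zfp655, the other gene among the 8 highest, had 10 ± 0.976, 8.97 ± 2.17 and 13.9 ± 2.62 FPKM and was called higher in IPO than IR (log2 fold change 0.61, adjusted p = 0.0498), a call lost in 14 of 19 alternatives, with an adjusted p of up to 0.280. These included every fit without 1 sham replicate and those without IR replicate 2 or 3 or IPO replicate 2 or 3.

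Members under the limit of 1 FPKM were not tested. Of these 77, the sham mean was above the IR mean in 67 and the IPO mean above the IR mean in 64. In 42 of them all IR libraries were below all sham libraries, and in 2 all were above. The same shares over all genes under 1 FPKM were not counted, so these counts have no background to be read against. These counts describe values close to the lowest that the table holds, and depth is unknown because no counts were given.

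The members lie unevenly over the genome, as is known for zinc finger genes that arose by tandem duplication. Chromosome 7 held 55 members and chromosome 17 held 36, followed by 22 on chromosome 13 and 19 on chromosome 8. Joining members less than 500 kb apart gave 13 runs of at least 4, with 104 members, 80 of them with the KRAB core. In the runs 20 of 60 tested members fell in IR and 26 were higher in IPO than IR. Outside them 28 of 110 fell and 32 were higher. Of all tested genes, 7.64% were lower in IR and 12% higher in IPO than IR. Of all tested KRAB members, in runs or not, 45.6% and 55.7% were. The largest run, chr17:21008941-23564226, held 17 members including Zfp160 and Zfp40, and 6 of its 13 tested members fell. The run at chr13:67128228-67827002 held 14 members, all with the KRAB core, among them Zfp729a. There 6 of 9 tested members fell in IR and 8 were higher in IPO than IR, with median log2 fold changes of -0.91 and 1.06. Members of a run are similar in sequence and are not independent of each other.

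**Figure D5:**
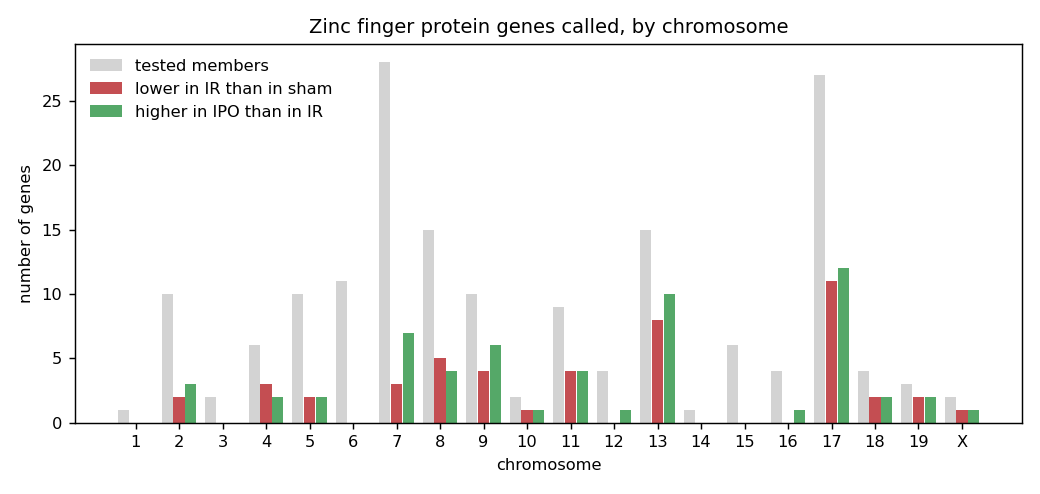
Number of zinc finger protein genes (y axis) by chromosome (x axis): tested members, members called lower in IR than sham, and members called higher in IPO than IR. Chromosome 17 has the most members called lower in IR, 11 of 27 tested, and chromosome 7 has the most tested members, 28. Of all tested genes, 7.64% were called lower in IR.

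Other zinc finger families and the partners of KRAB proteins were counted in the same fit. Of all tested genes, 3.86% were higher and 7.64% lower in IR, and 12% were higher and 10.1% lower in IPO than IR. Of 14 SCAN genes (Zscan and Zkscan), a family related to the KRAB class, 6 fell in IR and 0 rose, with a median log2 fold change of -0.36, and 3 were higher in IPO than IR. Zkscan7 had the smallest p of them, at 4.69 ± 0.554 FPKM in sham and 1.47 ± 0.435 in IR (log2 fold change -1.41, adjusted p = 0.00398). Of 25 tested BTB genes, 1 rose and 2 fell, close to the shares of all genes, among them Zbtb20, a repressor known to act in liver, from 8.16 ± 0.714 to 3.65 ± 1.07 FPKM. Of 16 tested KLF and SP genes, 4 rose and 0 fell in IR, with a median of 0.47, and 5 were lower in IPO than IR. Klf4 went from 1.89 ± 0.318 FPKM in sham to 8.41 ± 3.31 in IR libraries and 1.56 ± 0.793 in IPO. None of these lists had a call in IPO against sham.

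Of 29 tested corepressor and heterochromatin partners, 2 rose and 4 fell in IR, with a median of -0.06, beside 3.86% and 7.64% of all genes. Trim28, the corepressor that KRAB binds, had 7.18, 7.76 and 8.43 FPKM in sham, 13.2, 12.6 and 10.5 in IR and 9.14, 9.5 and 8.76 in IPO. Its IR libraries were above all others, and it rose by 0.60 on the log2 scale (SE 0.13, adjusted p = 0.0189). Atf7ip and Mphosph8, which act with SETDB1 and the HUSH complex, fell by 0.86 and 0.79 on the log2 scale. Setdb1 itself had 4.47 ± 0.761 FPKM in sham and 3.37 ± 0.128 in IR and did not pass the test (adjusted p = 0.139).

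Markers of the cell types in liver were read in the same libraries. All 6 hepatocyte markers were present, with a summed level of 17270 to 24998 FPKM in sham, 22558 to 30348 in the IR group and 22689 to 24915 in IPO. The 6 Kupffer cell markers summed to 71.2 to 97.9, 82.2 to 328 and 88.3 to 106 FPKM, and the 6 stellate cell markers to 111 to 130, 96.5 to 180 and 121 to 144. The 6 endothelial markers summed to 48.7 to 75.6, 52.4 to 86 and 60.4 to 69.5 FPKM. The 5 neutrophil markers read summed to 55.9 to 81.2 FPKM in sham, 9.44 to 64.1 in the IR group and 42.5 to 116 in IPO. The 3 T and NK cell markers read summed to 0.731 to 1.94, 0.51 to 10.4 and 0.213 to 0.426 FPKM, the 2 B cell markers to 0.322 to 0.691, 0.916 to 2.13 and 0.236 to 0.453, and the 3 cholangiocyte markers to 4.64 to 6.21, 6.88 to 27.4 and 3.37 to 5.43. Ly6g, Cd4, Cd8a, Klrb1c, Ms4a1 and Krt7 were not analysed here. In IR against sham, 2 endothelial and 2 stellate markers were called higher, and 1 endothelial and 1 neutrophil marker lower. In IPO against IR, 1 endothelial and 2 neutrophil markers were higher, and 1 endothelial, 1 stellate and 1 cholangiocyte marker lower. Of all tested genes, 3.86% were higher and 7.64% lower in IR, and 12% and 10.1% in IPO against IR. The T, NK and B cell markers were not tested. The part of these differences in cell markers in the values of the members was not tested.

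The authors' deposited tables of differing genes list 3 members among 320 genes higher in IR than sham and 54 members among 567 lower, 42 of them with the KRAB core. They list 56 members among 853 genes higher in IPO than IR and 4 among 676 lower. Between IPO and sham they list 2 members higher, Zfp40 and Zfp622, and 2 lower, Zfp750 and Zfp74. Members made up 0.938% and 9.52% of the genes listed as higher and lower in IR. In IPO against IR they made up 6.57% and 0.592%, and in IPO against sham 1.35% and 1.57%. Of all 11229 genes, 247 are members, 130 of them with the KRAB core. Those tables use a p-value without adjustment, and the largest q-value in the table of genes lower in IR is 0.249. The smallest absolute log2 fold change they hold is 0.585, while the limma calls had no such limit, so the counts are not alike.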

How the data were processed

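RNA-seq of mouse liver in 9 libraries was read from a table of FPKM that the authors had computed and deposited. Names of the aligner and the counting program were not given in the sources used here. Build mm10 is named in the submitters' processing notes. Where the authors' deposited tables of differing genes are quoted, the log2 fold change, its linear ratio and the p-value and q-value are the authors' own, per the file headers, and were printed only as such. An empty line (1 of the file) was left out.

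FPKM is not a count, so depth and counting error are unknown. At the best of the depths tried, 28.4% to 46.3% of low values in a library lay within 0.1 of a whole read, against 20% by chance, which fixes no depth. Values were taken to log2(FPKM + 0.5), and genes averaging 1 FPKM or more were fitted with limma 3.58.1 (R 4.3.3 and version 1.17.8 of data.table), 3 group means, a variance trend, 6 degrees of freedom left and 3.56 prior ones. P-values are two-sided and Benjamini-Hochberg adjusted over all 9649 genes, with a call at an adjusted p under 0.05. The log2(FPKM + 0.5) scale understates the change of low genes. The fit was tested on simulated data. Fingers, KRAB cores, GC content (99.9% of tested genes have a value), exon overlap and shared 75-base fragments came from GENCODE M21, read with Python 3.11.15, pandas 2.3.3, numpy 2.4.6 and biopython 1.88. Figures used matplotlib 3.10.9.

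Members, gene lists, the KRAB split and the GC ranges were chosen with earlier results of these data known. Named members are up to 12 called rises and 12 called falls per comparison with the largest fold change and no overlap between groups, the 8 highest by level, and up to 4 per role list by p. Up to 3 called genes per other list were eligible. A marker gene is not reported here.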

Additional observations from a re-analysis of the deposited data

How the results depend on the processing

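The direction of the members' median was kept in all 20 alternatives for IR against sham and all 19 for IPO against IR (the description number could not be a term there), while the number of calls was not. Members lower in IR numbered 48 as reported, 16 in a fit of the 2 compared groups only, 8 with the description number as a term and 7 of 27 at a mean of at least 5 FPKM. With that term, the sham side of the comparison rests on sham replicate 2, the 1 sham library that shares its number with the IR libraries. The KRAB members among these numbered 36 as reported and 11, 3 and 5 in the same order, and the others 12, then 5, 5 and 2. Members higher in IR, none of them with the KRAB core, numbered 4 as reported, 1 in the fit of 2 groups, 0 with the description number, and 2 with the loess correction and at 5 FPKM. Members higher in IPO than IR at 5 FPKM numbered 8, of which 5 had the KRAB core and 3 did not. Those lower, 8 as reported, numbered 3 with the loess correction and 3 at 5 FPKM. The KRAB members higher in IPO than IR numbered 28 with the loess correction, and without the filter 1 KRAB member was lower. The counts by KRAB core were alternatives added after seeing the data. Of all tested genes, 7.64% were lower in IR as reported, 2.27% with 2 groups only and 7.92% at 5 FPKM. Those higher in IR made up 3.86%, 1.25% and 4.4% in the same order, and 3.18% with the loess correction. In IPO against IR, 11.7% of all genes were higher at 5 FPKM. Those lower made up 8.43% with the loess correction and 11.6% at 5 FPKM.

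With the replicate number as a block, 29 members were lower in IR (20 with the KRAB core), or 17.1%, against 4.5% of all genes. Zfp40, Zfp825, Zfp932, Zfp933, Zfp358 and Zfp655 lost a call with that block (adjusted p of 0.0523 to 0.0848). The 9 pairs of libraries with the same number in different groups had correlations of -0.137 to 0.0653 between their deviations from the group means, so the numbers were not taken as a pairing.

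Leaving out 1 library at a time gave 15 to 50 members lower in IR (10 to 39 with the KRAB core, 5 to 15 without) and 0 to 4 higher (0 to 1 with, 0 to 4 without). It gave 36 to 57 members higher in IPO than IR (27 to 44 with, 8 to 15 without) and 3 to 9 lower, none with the core. Of all genes, 2.18% were lower in IR in the fit with 15 members and 9.27% in that with 50. In the fits with 36 and 57 members higher in IPO than IR, 6.63% and 13.2% of all genes were. In those with 3 and 9 members lower, 4.94% and 8.74% of all genes were. The members' median log2 fold change ranged from -0.504 to -0.315 in IR against sham and from 0.366 to 0.504 in IPO against IR. In IR against sham the median was -0.478 with a pseudocount of 0.1, -0.239 at 5 FPKM and -0.497 with the description number. In IPO against IR it was 0.517 and 0.351 with pseudocounts of 0.1 and 1, 0.118 at 5 FPKM and 0.333 with the loess correction. In IPO against sham it was -0.0622 at 5 FPKM.

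Some fold changes that were not called as reported changed sign; the one farthest from 0 as reported was Zfp598 in IPO against IR, at -0.37. Under median-of-ratios scaling, Zfp106 was at 0.0146 and Zfp207 at 0.00697 in IPO against sham. Under the loess correction Zfp335, Zfp598 and Zfp644 were at 0.234, 0.0249 and -0.0834 in IPO against IR, and Zfp598, Zfp644 and Zfp655 at -0.245, 0.114 and 0.0261 in IR against sham. With the description number Zfp644 was at 0.0909 and Zfp91 at -0.0643. Leaving out 1 library gave -0.158 to 0.059 for Zfp106, -0.148 to 0.101 for Zfp207, -0.0126 to 0.184 for Zfp644 and -0.225 to 0.0713 for Zfp830 in IPO against sham. It gave -0.147 to 0.0754 for Zfp622, -0.0901 to 0.4998 for Zfp687 and -0.233 to 0.0292 for Zfp706 in IPO against IR. In IR against sham it gave -0.0464 to 0.22 for Zfp598, -0.107 to 0.483 for Zfp687 and -0.0373 to 0.0405 for Zfp91. The causes of these changes were not tested.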
